A study of Ovis aries and Mus musculus with 20 samples.

Results

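The immunoglobulin variable (V) gene segments of the heavy chain and of the kappa light chain were examined in the folded genome of mouse inguinal fat. Members were the genes whose symbols start with Ighv on chromosome 12 or Igkv on chromosome 6 and whose type in the GENCODE M39 annotation of GRCm39 is a functional immunoglobulin V gene. The rule gave 213 members, 113 Ighv and 100 Igkv, out of 218 genes of that type and 72958 annotated genes on the autosomes. The other 5 genes of the type, 2 on chromosome 6 with other symbols and 3 of the lambda chain, were not members. No measured value entered the rule, which was chosen with earlier results of these data known.

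The data were 2 in situ Hi-C libraries of inguinal white adipose tissue from Kunming mice, which were adult females aged 32 weeks, and each library was made from a pool of 10 mice. The animals were fasted before they were killed, and no other treatment and no altered allele was described. There was no other mouse group, so nothing could be tested between conditions. Every result is a description with the mean and SD of the pools (n = 2 pools). Nuclei came from the floating adipocyte layer of fixed tissue, and each value is an average over all the nuclei of a pool. Kunming is an outbred stock and the coordinates are those of the reference strain, so whether each segment is present in these mice was not tested. The inguinal fat pad of the mouse surrounds a lymph node, and the sources used here do not say whether it was removed; the share of B cell nuclei was not measured.

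An antibody heavy chain is assembled in a developing B cell from 1 V, 1 D and 1 J segment, and a kappa light chain from 1 V and 1 J segment, by the process called V(D)J recombination. The RAG proteins cut beside each segment at a recombination signal, which is a heptamer and a nonamer held apart by a spacer of 12 or 23 bases. For the cut they pair a signal of one spacer length with a signal of the other. To bring V segments spread over megabases to the D and J segments, the loci contract in B cell precursors, and in cells of other lineages the V segments are neither joined nor transcribed as antibody genes. V segments near the D or J segments are called proximal and those at the far end distal. The measurement here was the A-B index. It scores each bin of 20 kb by whether the bin contacts the open, gene-rich A compartment more (above 0) or the closed, gene-poor B compartment more (below 0). Topologically associating domains (TADs) are stretches whose bins contact each other more than their surroundings.

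The sequences that mark the members at the ends and at the extremes of each locus are printed first, read from GRCm39 on the strand of each gene. Each begins directly after the annotated end of the segment, with the heptamer position and the nonamer position in capitals and the spacer in lower case. The heavy-chain examples are the most proximal member Ighv5-2 (ENSMUSG00000076633.9), the member with the lowest index Ighv1-31 (ENSMUSG00000096649.3) and the most distal member Ighv1-85 (ENSMUSG00000096150.2), all on the minus strand of chromosome 12.
Ighv5-2, chr12:113542085-113542123: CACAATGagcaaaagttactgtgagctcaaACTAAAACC
Ighv1-31, chr12:114792845-114792883: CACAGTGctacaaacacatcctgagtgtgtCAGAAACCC
Ighv1-85, chr12:115963609-115963647: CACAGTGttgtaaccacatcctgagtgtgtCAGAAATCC
The kappa examples are the most proximal member Igkv3-1 (ENSMUSG00000095682.2), the member with the lowest index Igkv1-122 (ENSMUSG00000095497.3) and the most distal member Igkv2-137 (ENSMUSG00000076501.3), all on the plus strand of chromosome 6.
Igkv3-1, chr6:70681162-70681189: CACAGTGctccagggctgaACAAAAACC
Igkv1-122, chr6:67994473-67994500: CACAGTGatgcagaccctaACAAAAACA
Igkv2-137, chr6:67533201-67533228: CACAGTGatacagccctgaACAAAAACC
The capitals stand at the standard spacing of the locus, 23 bases for the heavy chain and 12 for kappa. In Ighv1-31 the nonamer-like letters TCAGAAACC stand after 22 bases, and in Ighv1-85 the letters TCAGAAATC do. The capitals of these 2 members therefore do not mark the closest match.

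The exact heptamer CACAGTG stood directly after the annotated end, on the gene's strand, in 81 of 113 Ighv members (71.7%) and 87 of 100 Igkv members. With up to 1 mismatch it was found after 103 Ighv members (91.2%) and 98 Igkv members. The exact nonamer ACAAAAACC followed at the spacing of 12 bases in 34 Igkv members and at the spacing of 23 bases in only 3 Ighv members (2.65%). With up to 1 mismatch the nonamer counts were 81 Igkv and 23 Ighv members. In the Ighv1 family 30 of 53 members (56.6%) held TCAGAAACC after 22 bases, and 36 of all 113 Ighv members (31.9%) did, a match searched for after the printed sequences had been seen.

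The octamer ATGCAAAT, the site of the POU-domain factors Oct1 and Oct2 in immunoglobulin promoters, was searched on both strands from 250 bases before to 50 bases after each annotated start. It was found in 91 of 113 Ighv members (80.5%), always on the gene's own strand. In Igkv members it was found in 73 of 100, always on the other strand and in 2 of them on both. In the same window of 20621 protein-coding genes on the autosomes it was found in 352 (1.71% on either strand), and in 0 of 144 T cell receptor V segments. The examples below show it in capitals, read on the gene's strand, so that in kappa promoters it appears as its reverse complement.
Ighv5-2, chr12:113542718-113542757: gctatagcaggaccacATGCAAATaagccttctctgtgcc
Ighv1-31, chr12:114793400-114793439: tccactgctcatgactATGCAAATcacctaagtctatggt
Ighv1-85, chr12:115964165-115964204: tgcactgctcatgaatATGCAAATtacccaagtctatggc
Igkv3-1, chr6:70680454-70680493: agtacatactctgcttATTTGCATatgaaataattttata
Igkv4-72, chr6:69204451-69204490: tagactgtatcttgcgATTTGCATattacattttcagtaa
Igkv4-72 is shown as a member of the largest kappa family. A match is a description of the letters and says nothing on whether a factor bound there in fat.

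All 113 Ighv members lay in the B compartment in both pools. The same was true of 51.6% of the 123133 autosomal bins, 31.7% of all annotated genes and 21.7% of protein-coding genes, and on chromosome 12 of 54% of bins and 11.1% of protein-coding genes. The median index of the members was -5.58 in pool 1 and -5.43 in pool 2, with a mean of -5.51 ± 0.107. Over all autosomal bins the median was -0.18 in pool 1 and -0.36 in pool 2. The members thus sat deep in the B range: only 7.76% of autosomal bins in pool 1 and 6.08% in pool 2 had a lower index than the member median. None of the 639 protein-coding genes of chromosome 12 did so in either pool.

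The Ighv members span chr12:113542124-115964081, which is 2.42 Mb, and all are on the minus strand. They start in 93 of the 122 bins of the span, so that neighbours that share a bin share a value. All 122 bins were in B in both pools, and no protein-coding gene starts inside the span. The 70 pseudogenes of the same name start, which are not members, had a median of -5.81 ± 0.150, and all 70 were also in B. Bins with no member start (29 bins) had a median of -5.93 ± 0.0363 and bins with a member start -5.53 ± 0.0807. The low index was therefore a property of the whole stretch and was not limited to bins that hold a member.

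Along the heavy-chain locus the index fell from the proximal end to the middle and rose again toward the distal end. Taken in order from the proximal end in groups of 22 or 23 members, the medians were -4.43 ± 0.195, -5.92 ± 0.130, -6.44 ± 0.229, -5.73 ± 0.362 and -4.57 ± 0.176. The group in the middle was the lowest and the groups at both ends were the highest, and this held in each pool. The 56 most proximal members had a median of -5.38 in pool 1 and -5.32 in pool 2, and the 56 most distal members -5.59 and -5.70. That difference of 0.29 ± 0.114 is small beside the rise and fall within each of these groups, and over 100-kb windows it turned to -0.44 ± 0.529.

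**Figure D1:**
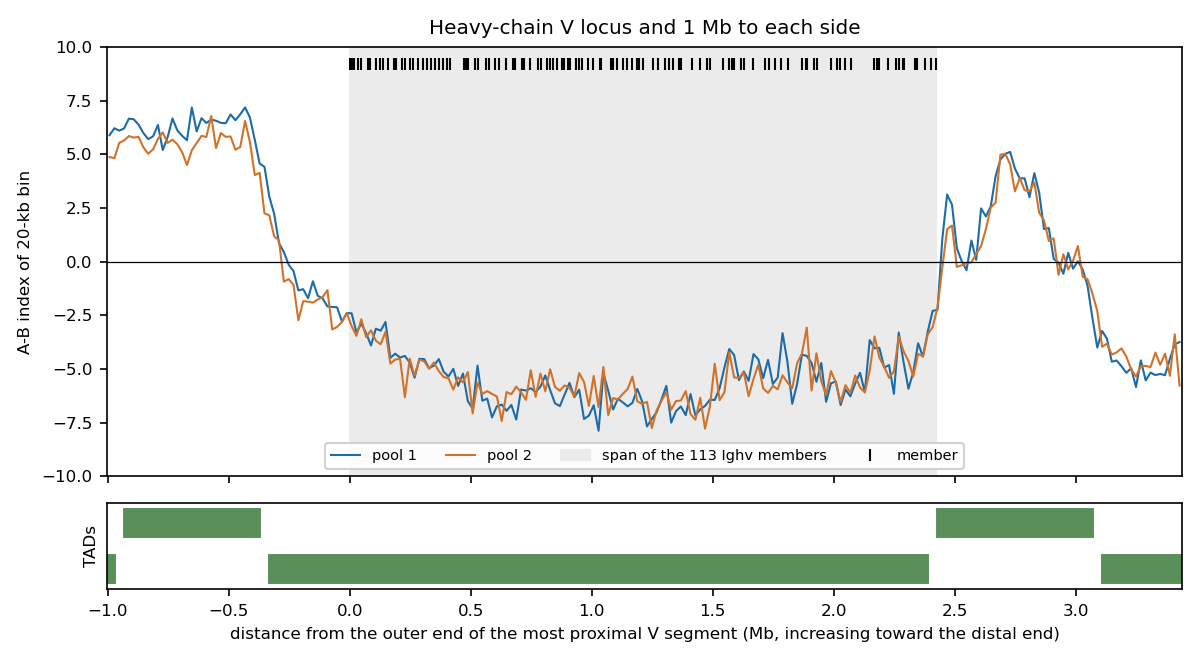
A-B index of each 20-kb bin (vertical axis, score) against distance in Mb from the outer end of the most proximal Ighv segment, for pool 1 and pool 2, with members as ticks and TADs as bars in the lower panel. The index is below 0 in all 122 bins of the shaded span in both pools, lowest in the middle, and above 5 in much of the proximal flank.

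The lowest member was Ighv1-31, at -7.33 in pool 1 and -7.75 in pool 2. Its bin, chr12:114780001-114800000, had the lowest mean index of all 6005 bins of chromosome 12. Ighv1-11 and Ighv1-12 came next and share a bin at -7.88 and -6.78. Of the 60 bins that make up the lowest 1% of chromosome 12 by mean index, 35 (58.3%) lay inside the Ighv span, which holds 2.03% of the bins of the chromosome. In the separate pools 33 and 30 of the lowest bins lay there. The highest bin of the same chromosome, at 7.19 and 6.56, was only 1.68 Mb from the lowest, on the other side of the constant-region genes. It holds the starts of Crip1 and Crip2, small LIM-domain proteins, and of Tedc1.

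The highest members stood at the ends of the array. Ighv1-85, the most distal, had -2.25 in pool 1 and -2.15 in pool 2, and its neighbour Ighv1-84 had -2.29 and -3.06. At the other end Ighv5-2, the most proximal, shared with Ighv2-2 the values -2.41 and -3.0. Of all 113 members 66 were below -5 in both pools and 95 were below -4. Those with a mean above -3 were these members and Ighv5-6, also near the proximal end, at -2.88 and -2.68. The pools differed at a member by a median of 0.50 and at most by 1.96, and 54 of the 113 members were lower in pool 1.

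The families follow their position. The interleaved Ighv5 and Ighv2 families, which fill the proximal end and are used preferentially by fetal B cells, had medians of -4.14 ± 0.0647 (10 members) and -3.51 ± 0.248 (9 members). The small families of the middle were lower: Ighv3 had -6.13 ± 0.25 (6 members), Ighv9 had -6.22 ± 0.0306 (4 members) and Ighv6 had -6.22 ± 0.538 (5 members). The single member of Ighv15 had -7.18 in pool 1 and -6.73 in pool 2. The large distal Ighv1 family had a median of -5.73 ± 0.0387 over 53 members, with means from -7.54 to -2.20. The 9 Ighv8 members interspersed among them had -5.72 ± 0.0715. Family and position cannot be told apart in the heavy-chain locus, since most families lie together.

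Toward the D, J and constant segments the index changed gradually. The 19 D segments, which lie between the V and J segments, were all in B, with a median of -1.71 in pool 1 and -1.66 in pool 2. Of the embedded fertility genes, Adam6a, between the V and D segments, had -2.79 and -2.81, and Adam6b, among the D segments, had -2.09 and -1.33. The bin of the J segments and of the Ighm constant gene was at -0.92 and -1.91. The sign changed within the constant-region genes: Ighg2b had 0.45 in pool 1 and -0.93 in pool 2, and Ighg2c, the next toward the 3′ end, 0.86 and 1.00. Tmem121, the first gene past the constant region, was at 5.67 and 4.03. From Ighv5-2 to the first bin that was in A in both pools the distance was 300 kb.

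The distal end was abrupt by comparison. From Ighv1-85 at -2.25 and -2.15, the next bin outward was at 1.07 in pool 1 and -0.27 in pool 2. Zfp386, a zinc finger gene 47.2 kb beyond the locus, was at 3.13 and 1.52. Farther out the flank was mixed: Vipr2, the receptor for vasoactive intestinal peptide, was near 0 at 0.63 and -0.25, and Esyt2, an extended synaptotagmin, was at 5.02 in both. The unbroken run of B bins that holds the members ran from chr12:113280001 to 115980000, or 135 bins and 2.7 Mb.

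The 1 Mb beside the proximal end had a median of 5.85 in pool 1 and 5.14 in pool 2 over 50 bins, and 36 of these were in A in both pools and 13 in B, beside 42.1% of the bins of chromosome 12 in A. The median of the locus bins minus that of the flank was -11.53 in pool 1 and -10.77 in pool 2 (-11.1 ± 0.534). The 13 bins in B cover the stretch between the V and D segments, the D and J segments and part of the constant segments. Over the nearest 500 kb alone the difference was -5.11 ± 0.591. The 1 Mb beside the distal end had a median of -0.02 and -0.21, with 20 bins in A, 23 in B and 7 of unlike sign, and the locus minus this flank was -5.54 ± 0.169. Of 24 protein-coding genes in the proximal flank 22 were in A, the exceptions being Adam6a and Adam6b, and of 6 in the distal flank 5 were in A and none in B, beside 85.1% of the protein-coding genes of the chromosome in A.

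**Figure D2:**
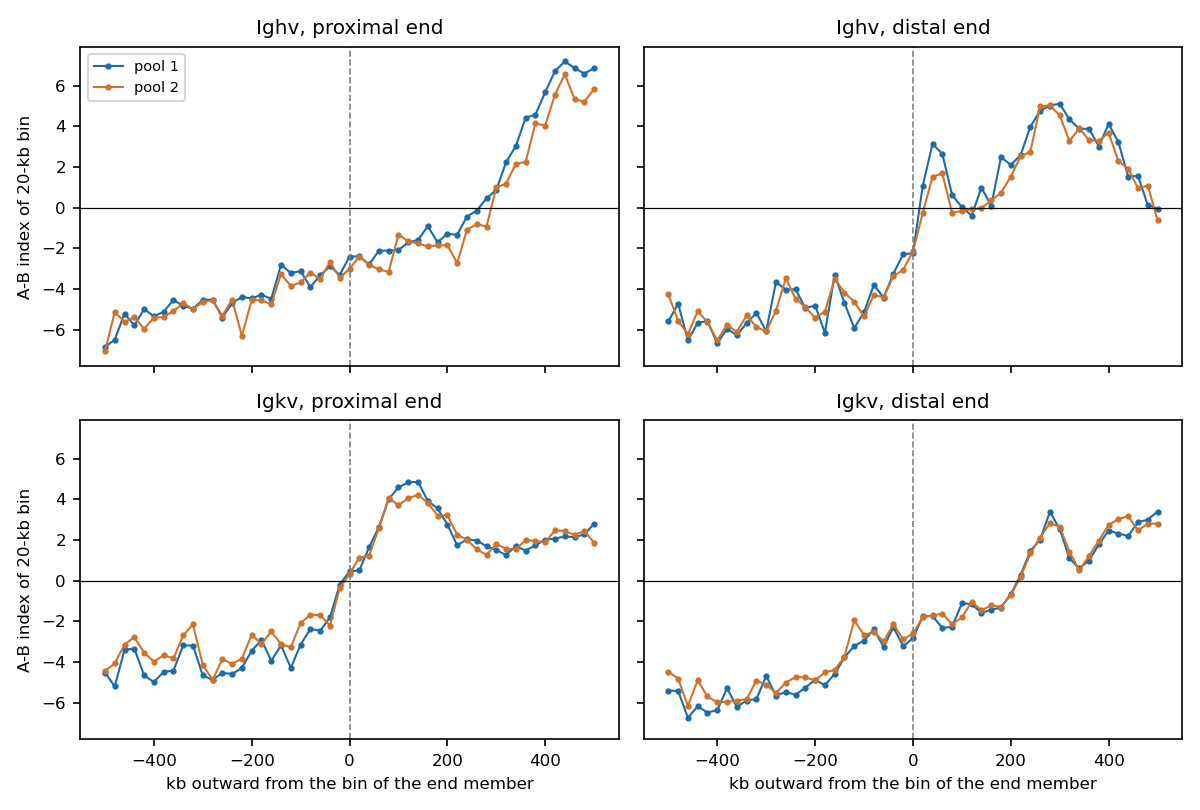
A-B index of 20-kb bins (vertical axis, score) over 500 kb to each side of the bin of the end member (dashed line at 0 kb, positive values outward), at both ends of both loci, with a line for each pool. The proximal end of Ighv and the distal end of Igkv rise over 220 to 300 kb outside the members, while the distal end of Ighv and the proximal end of Igkv change sign within 40 kb of it.

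A single TAD held almost the whole heavy-chain array. It ran over chr12:113200001-115940000, or 2.74 Mb, and held 111 of the 113 members, Ighv5-2 to Ighv1-82, together with the D and J segments and the constant-region genes. It was longer than 96.8% of the 2979 TADs, whose median was 0.54 Mb. Its median index was -5.41 in pool 1 and -5.40 in pool 2. Ighv1-84 starts in the boundary bin chr12:115940001-115960000, and Ighv1-85 is the only member in the next TAD, whose median index was 1.24 ± 0.398. The count inside the span was thus 1 boundary, or 0.413 per Mb, against 1.12 per Mb on chromosome 12, and it was 0 when the span was shortened by 1 bin at each end. The boundary on the constant-region side, at chr12:113180001-113200000, had an index of 4.42 and 2.25, so the change of sign lay inside the TAD and not at its edge. TADs were called on the merged pools and have no replicate.

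Of the 100 Igkv members 99 were in B in both pools and 1 in A, beside 50% of bins and 25.3% of protein-coding genes of chromosome 6 in B. The median was -4.93 in pool 1 and -4.48 in pool 2 (-4.71 ± 0.314). In pool 1 14.0% and in pool 2 15.3% of all autosomal bins had a lower index than the members' median. Kappa members thus stood nearer to 0 than heavy-chain members in each pool, by 0.66 in pool 1 and by 0.95 in pool 2. Of the Igkv members 27 were below -5 in both pools, 59 were below -4, and 20 had a mean above -3. The loci lie on different chromosomes, and with the median of each chromosome subtracted, the medians were -5.09 ± 0.195 for Ighv and -4.48 ± 0.457 for Igkv.

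The kappa members span chr6:67532481-70681161, which is 3.15 Mb and 159 bins, of which 158 were in B in both pools. Unlike the heavy-chain array this one holds segments in both directions, 38 on the plus and 62 on the minus strand, so that joining to J proceeds by inversion for some and by deletion for others. The strands had medians of -4.62 ± 0.220 (plus) and -4.77 ± 0.299 (minus). The plus strand was slightly higher in each pool, at -4.78 against -4.98 in pool 1 and -4.47 against -4.56 in pool 2. The 60 pseudogenes of the same name start had a median of -4.48 ± 0.494, and all 60 were in B. Of the 74 bins that make up the lowest 1% of chromosome 6 3 (4.05%) lay in the span, which holds 2.13% of its bins. In the separate pools the counts were 2 and 6, far fewer than in the heavy-chain locus.

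The exception in A was Igkv3-1, the member nearest to the J segments, at 0.46 in pool 1 and 0.32 in pool 2. Its bin also holds the first J segments, Igkj1 and Igkj2. Igkv3-2 and Igkv3-3 in the next bin had -0.18 and -0.34, and Igkv3-4 and Igkv3-5 in the following bin -1.80 and -2.20. Igkv3-7 followed at -3.14 and -2.08, lower than these in pool 1 only. Averaged over 100-kb windows all 100 Igkv members were in B, so the exception rests on the 20-kb bins. The constant gene Igkc was in A at 0.51 and 1.14, and all 6 kappa J and constant genes were in A. Of the 12 heavy-chain J and constant genes 3 were in A in both pools, 8 were in B and 1 had unlike signs.

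**Figure D3:**
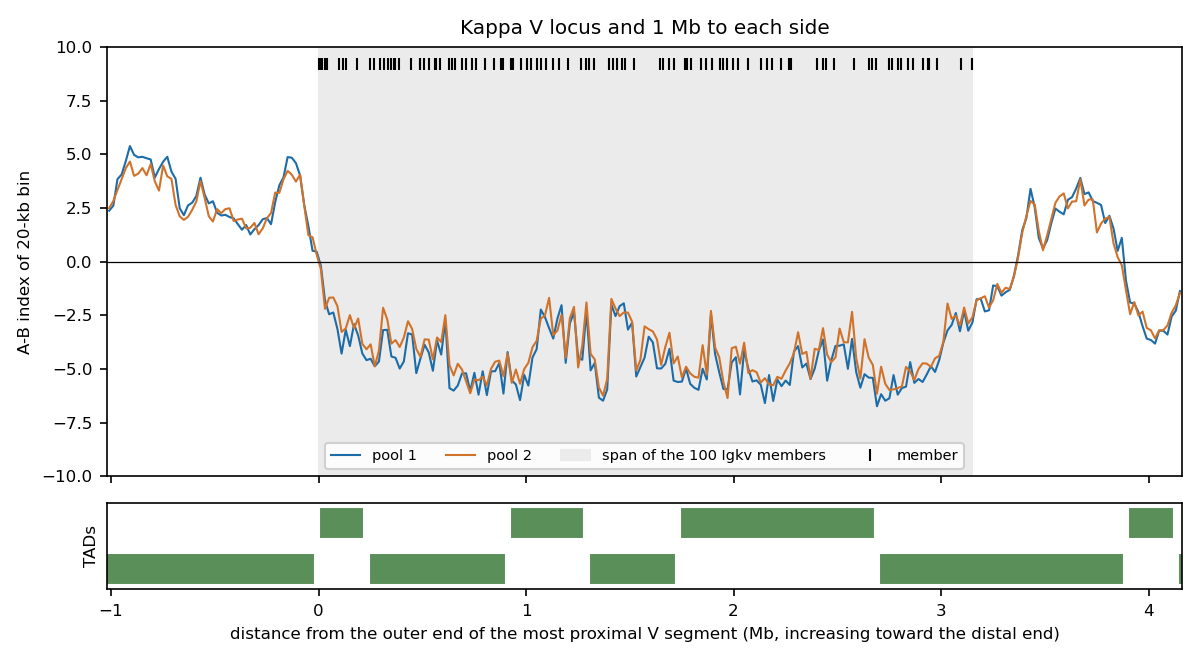
A-B index of each 20-kb bin (vertical axis, score) against distance in Mb from the outer end of the most proximal Igkv segment, for pool 1 and pool 2, with members as ticks and TADs as bars in the lower panel. The index crosses 0 at the most proximal member, and the shaded span alternates between stretches below -5 and stretches above -3, the latter near 1.1 to 1.5 Mb and at both ends.

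Within the kappa locus the index rose and fell more than once. In order from the proximal end in groups of 20 members, the medians were -3.27 ± 0.208, -5.19 ± 0.0329, -3.28 ± 0.0620, -5.33 ± 0.408 and -5.01 ± 0.372. The proximal group and the group in the middle were thus higher than the others in both pools. The 50 most proximal members had a median of -4.47 in pool 1 and -3.78 in pool 2, and the 50 most distal -5.21 and -4.75, a difference of 0.85 ± 0.166. The lowest member was Igkv1-122, at -6.74 and -6.16, followed by Igkv9-123 at -6.37 and -5.98 and Igkv19-93 at -5.95 and -6.36. The most distal member, Igkv2-137, was at -2.83 and -2.59.

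The higher stretch in the middle belongs to the Igkv4 family, the largest of the locus with 26 members, all on the minus strand. The family had a median of -4.07 in pool 1 and -3.56 in pool 2, and the means of its members ran from -5.77 to -1.87. In the stretch chr6:69160001-69280000 all 6 bins had a mean above -3, with an average of -2.43 in pool 1 and -2.33 in pool 2. It holds 5 members, of which Igkv4-69 was at -2.00 and -1.74 and Igkv4-72 at -1.94 and -2.37. Neighbouring families were lower: Igkv5, on the proximal side, had a median of -5.86 ± 0.240 over 5 members, and Igkv12, with members on both sides, had -5.46 ± 0.0670 over 6. The Igkv1 family, spread over much of the locus, had -5.01 ± 0.252 over 10 members. The Igkv3 family, at the J end, had -2.00 ± 0.285 over 9 members, the highest median of the 20 kappa families.

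**Figure D4:**
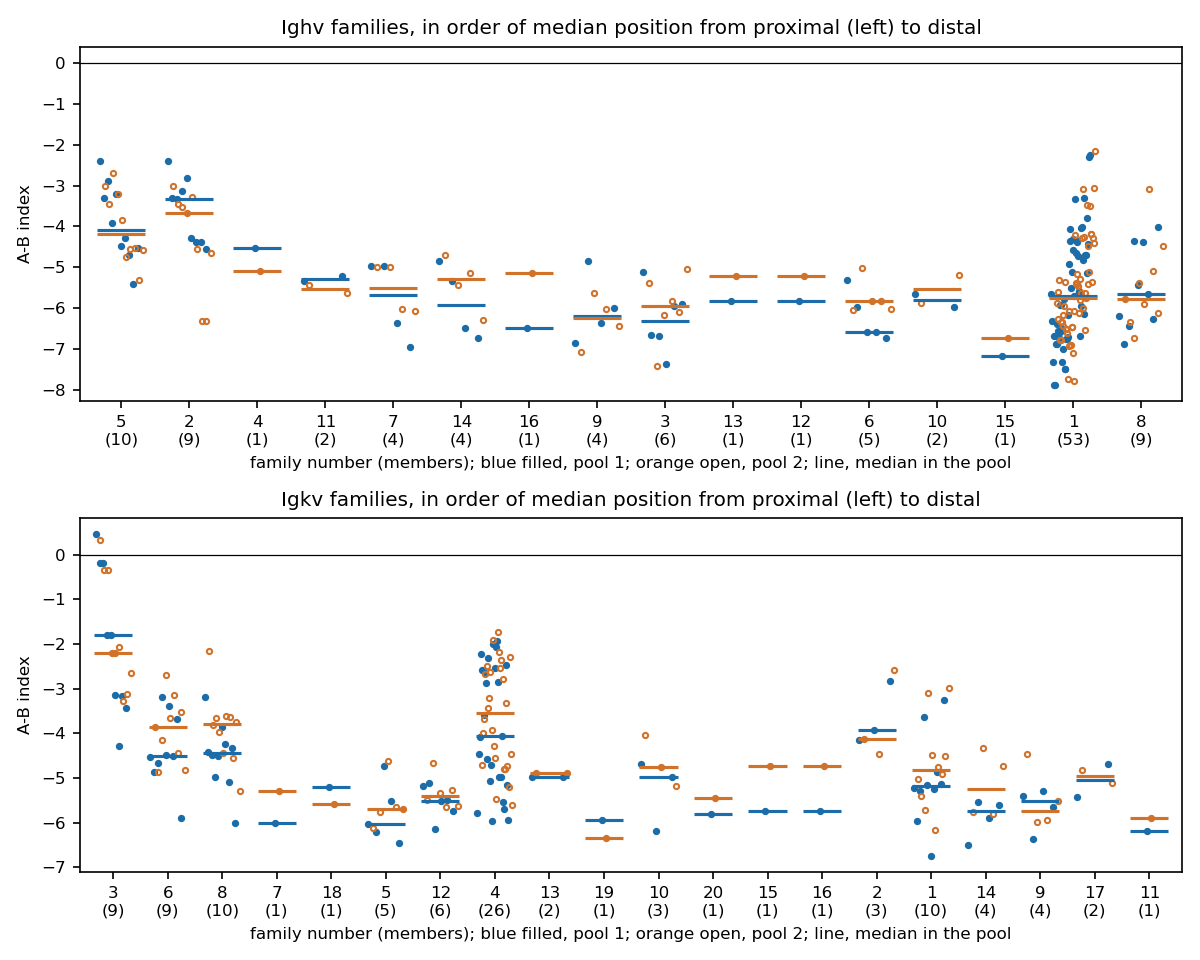
A-B index (vertical axis, score) of each member in pool 1 (filled blue) and pool 2 (open orange) by family, ordered by median position from proximal to distal, with a line at the median of each pool and the number of members in brackets. Ighv5, Ighv2 and Igkv3 at the proximal ends have the highest medians of their locus, and the 53 Ighv1 members spread from -7.54 to -2.20 by mean.

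At the kappa locus the sign changed near the end member on the J side and farther out on the distal side, the reverse of the heavy chain. The rise on the J side was gradual and began inside the array. It went from -2.37 in pool 1 and -1.67 in pool 2, 80 kb inside the end bin, to 4.01 and 4.05, 80 kb outside it. Rpia, an enzyme of the pentose phosphate pathway 88.1 kb beyond Igkv3-1, was at 4.01 in pool 1 and 4.05 in pool 2. Eif2ak3, the kinase PERK of the unfolded protein response, was at 4.87 and 4.23. All 50 bins and all 14 protein-coding genes of this flank were in A, and the locus minus the flank was -7.28 ± 0.371. On the distal side B continued outward: Il23r, the receptor for interleukin 23, was at -2.32 and -1.61. Gadd45a, a stress response gene farther out, was at 3.90 and 3.83. The distal 1 Mb had 25 bins in A and 24 in B, and on the chromosome 46.7% of bins and 71.6% of protein-coding genes were in A. Of 14 protein-coding genes of the distal flank 11 were in B, among them 8 vomeronasal receptor genes with means from -3.43 to -1.11. The locus minus this flank was -4.72 ± 0.597.

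The kappa array was divided among 6 TADs, in contrast to the single TAD of the heavy chain. From the proximal end these held 8, 28, 12, 12, 25 and 12 members, with median indices of -2.82 ± 0.457, -4.65 ± 0.313, -4.04 ± 0.332, -4.17 ± 0.773, -4.96 ± 0.397 and -1.30 ± 0.0250. The last of these also covers bins of the distal flank, some of them in A. The other 3 members start in boundary bins: Igkv3-1 at the proximal end, Igkv4-61 within the Igkv4 family at -2.30 and -1.90, and Igkv1-122, the lowest member of all. With the boundary at Igkv3-1 set apart as the end of the array, 5 boundaries lay inside the span, or 1.59 per Mb, beside 1.22 per Mb on chromosome 6. The boundary bins inside had means from -6.45 to -2.10, so all 5 were themselves in B.

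Low base uniqueness moved with the index in both loci. V segments and their pseudogenes are near copies of each other, and reads that map to several places are discarded at the mapping quality of 30 used for these libraries. The share of 100-base words found once on the chromosome had a median of 94.2% over the Ighv bins and 93.6% over the Igkv bins, against 99.6% over each of chromosomes 12 and 6. In the Ighv span 57 bins with at least 95% of such words had a median index of -6.02 ± 0.0181 and the 65 bins below that -5.35 ± 0.00751. In the Igkv span the values were -5.22 ± 0.378 for 70 bins and -4.02 ± 0.367 for 89 bins. The Pearson correlation of the index with this share was -0.417 over 122 Ighv bins and -0.401 over 159 Igkv bins, which share libraries and neighbours, so the less unique bins were nearer to 0. The part of uniqueness in the pattern along the loci was not tested, but members in the bins with at least 95% were in B in 56 of 56 cases for Ighv and 45 of 46 for Igkv, with medians of -5.92 ± 0.111 and -5.17 ± 0.495. The exception was again Igkv3-1. The spans held almost no unknown bases, at most 0.005% of a bin.

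The median GC content of each locus was below that of its flanks and its chromosome. It was 39.1% over the Ighv bins and 38.9% over the Igkv bins. The proximal flanks had 50.3% (Ighv) and 44.0% (Igkv), and the distal flanks 43.6% (Ighv) and 40.6% (Igkv). Over chromosomes 12 and 6 it was 41.2% and 40.7%. Within the loci GC content had a correlation of 0.208 (Ighv) and 0.169 (Igkv) with the index. The pools correlated at 0.814 over the Ighv bins and 0.932 over the Igkv bins, below 0.988 over all autosomal bins, whose index spans a far wider range. Of the Igkv members 79 were lower in pool 1 than in pool 2, and the median size of the difference between pools was 0.435.

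Members with the promoter octamer had a median of -5.54 ± 0.153 in the Ighv locus (91 members) and -4.80 ± 0.260 in the Igkv locus (73 members). Members without it had -4.96 ± 0.486 (22 members) and -4.33 ± 0.272 (27 members). In each pool the members with the octamer were lower, by 1.03 and 0.12 in Ighv and by 0.45 and 0.47 in Igkv. Whole families lacked it, however: the 9 Ighv2 members (median -3.51), the 9 Igkv6 members (-4.19) and the 10 Igkv8 members (-4.12). The octamer therefore cannot be told apart from family and position here. Members with the exact heptamer directly after the annotated end had medians of -5.50 ± 0.0372 in Ighv and -4.74 ± 0.335 in Igkv. Members without it there had -5.58 ± 0.236 in Ighv and -4.42 ± 0.394 in Igkv. Ighv8-2 was counted as without it, although CACAGTG begins a base farther on. Without minus with the heptamer, the difference was -0.23 in pool 1 and 0.056 in pool 2 for Ighv, of unlike sign, and 0.28 and 0.36 for Igkv.

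The other antigen receptor V loci were mostly in B as well, those of the T cell receptor nearer to 0 than the immunoglobulin loci. The 3 lambda V genes on chromosome 16 were all in B with a median of -6.33 ± 0.689. The 22 T cell receptor beta V genes were all in B with a median of -3.47 ± 0.126. Of the 110 alpha V genes 108 were in B, with a median of -2.16 ± 0.109, but 32 of these values lay within 0.1 of 0, and the other 78 had -2.97 ± 0.0437. Of 7 gamma V genes 5 were in B, and of 5 delta V genes 3 were in B and 2 in A. No Ighv or Igkv member lay within 0.1 of 0 in both pools.

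**Figure D5:**
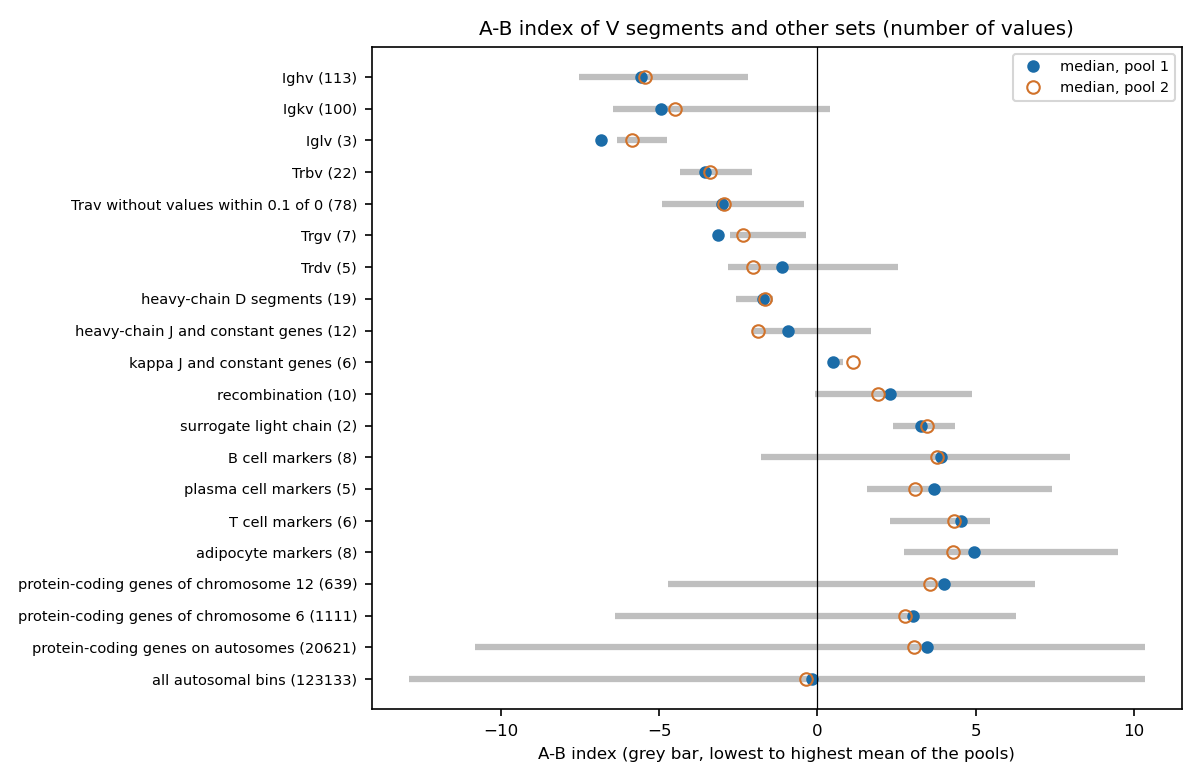
A-B index (horizontal axis, score) of V segments, related gene sets and all genes or bins, as the median in pool 1 (filled) and pool 2 (open) with a grey bar from the lowest to the highest mean of the pools and the number of values in brackets. The medians of the immunoglobulin V sets lie left of those of the T cell receptor V sets, and the medians of the recombination and marker sets lie right of 0.

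Genes that act on the V segments, and genes of the cells that use them, were mostly in A, as were 75.6% of all protein-coding genes on the autosomes. Of 10 genes of the recombination machinery 7 (70%) were in A in both pools and none in B, a share near that background. Rag1, the catalytic recombinase subunit, was at 1.15 and 0.81, while Rag2, Dntt and Xrcc4 had unlike signs in the pools and means within 0.5 of 0. Of 8 B cell markers 7 were in A, including Cd79a, a chain of the B cell receptor, at 8.36 and 7.21. Ms4a1, which encodes CD20, was in B at -1.47 and -2.11. All 5 plasma cell markers and all 6 T cell markers were in A, with medians of 3.40 ± 0.429 and 4.42 ± 0.164.

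The index was also read at adipocyte markers, since no mouse RNA was used here. All 8 were in A, beside 75.6% of protein-coding genes on the autosomes. Their median was 4.62 ± 0.476, from adiponectin (Adipoq) at 2.71 and 2.74 to the triglyceride lipase Pnpla2 at 9.83 and 9.15. Most markers of B, plasma and T cells were in A as well. The marker lists therefore do not separate the cell types here and cannot check the label of the tissue. Hi-C depth per library was not used here. The deposited index holds no read or contact counts, and the contact counts to which the paper refers in its supplement were not used. No counting error is therefore set beside the index.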

How the data were processed

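In situ Hi-C of mouse inguinal white adipose tissue (2 pools of 10 mice) was used, and samples were grouped from their labels. The authors cut chromatin with MboI, aligned reads to GRCm39 with BWA 0.7.8 in Juicer 1.5.6, kept a mapping quality of at least 30, called coarse compartments at 100 kb in R 3.6.1 and deposited for every library an A-B index score, positive or negative, on 20-kb bins. TADs were deposited as positions, called by the authors on merged pools from insulation scores (square of 260 kb, delta window of 200 kb). A boundary is the bin between neighbouring TADs. Sheep files were not used.

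Each gene took the value of the bin that holds its annotated start (GENCODE M39). Bins, flanks of 1 Mb, families, marker lists and all genes were summarised as medians in each pool, then as mean and SD of the pools. Python 3.11.15, numpy 2.4.6, pandas 2.3.3, pysam 0.24.0 and matplotlib 3.10.9 were used. The lookup was tested on simulated data. Members and lists were chosen with earlier results of these data known. Named members were the end members, the 3 highest and 3 lowest of each locus, those in boundary bins or at changes of sign, and the nearest or most extreme flanking genes. Igkv4-69, Igkv4-72 and Igkv3-7 were named after their values were seen. Alternatives are given in the closing section.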

Additional observations from a re-analysis of the deposited data

How the results depend on the processing

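No paired analysis was possible because there was only 1 group of 2 pools and no value came from a test. Leaving out a pool gave these ranges of medians: Ighv members -5.58 to -5.43, Igkv members -4.93 to -4.48, Ighv proximal minus distal members 0.21 to 0.37, Igkv 0.73 to 0.97, Ighv locus minus proximal flank -11.5 to -10.8 and distal flank -5.66 to -5.42, Igkv -7.54 to -7.02 and -5.14 to -4.30. The counts in B were 113 and 99 in either pool. With 2 pools each pool lies within 1 SD of their mean by construction, so these ranges are no sign of stability. Subtracting the chromosome median likewise cannot change a difference within a chromosome.

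Only the Ighv proximal minus distal difference reversed, to -0.44 over 100-kb windows. It was 0.15 with 1 value per bin and 0.083 in SD units, and the cause was not tested. The Ighv median was -5.09 with the chromosome median subtracted, -5.82 over 100-kb windows, -5.63 with pseudogenes and -5.92 in bins with at least 95% of words found once, and the last, added after seeing the data, gave -5.17 for Igkv. With the index divided by the SD of autosomal bins, which changes the unit, the medians were -1.54 (Ighv) and -1.31 (Igkv), the Igkv proximal minus distal difference 0.24, and the differences from the proximal and distal flank -3.10 and -1.54 (Ighv) and -2.03 and -1.31 (Igkv). Flanks of 500 kb gave -5.11 and -7.78 (Ighv) and -6.69 and -5.63 (Igkv). Counts in B became 183 and 159 with pseudogenes and 56 and 45 in bins with at least 95%, since more or fewer genes were counted. Over 100-kb windows all 100 Igkv members were in B, Igkv3-1 included. The Ighv span shortened by 1 bin at each end held 0 boundaries.

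Depth per library was not used here, TADs had no replicate, and 2 pools limit every SD. The SD of the pools measures only the spread between these libraries.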
